A study of Saccharomyces cerevisiae x Saccharomyces paradoxus and Saccharomyces cerevisiae and Saccharomyces paradoxus with 40 samples.

Results

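The small subunit processome is the large assembly of proteins and U3 RNA that forms on the nascent ribosomal RNA precursor and cuts and folds the part that becomes 18S rRNA. The 34 genes described here encode proteins of that assembly, of the box C/D and H/ACA particles that modify rRNA, and of late 40S maturation. They were taken from a list of such factors with systematic names ending in W, and all 34 were found among the 3217 genes of the deposited count tables. By role, 3 encode box C/D proteins, 3 H/ACA proteins, 3 the UTP-A module, 3 the Mpp10 module, 12 other processome proteins, 4 RNA helicases, 2 base methyltransferases and 4 late 40S factors. All 34 passed the filter on low counts.

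Box C/D particles carry guide RNAs that direct ribose methylation, and H/ACA particles carry guides that direct pseudouridylation; the box C/D RNA U3 instead guides cleavage of the precursor. In budding yeast, making ribosomes takes much of the transcription of a growing cell, and genes for ribosome assembly are known to be turned down together when nutrients run out. Sporulation, the yeast form of gamete formation, starts from such starvation.

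RNA was sequenced from S. cerevisiae, from S. paradoxus and from the hybrid made by crossing them, 40 libraries in 12 groups, with 3 libraries in each parental group and 4 in each hybrid group. All cultures were grown in rich YPD medium and moved to potassium acetate sporulation medium. T0 is the time of transfer, M1 the start of meiosis I, M1M2 the stage where meiosis I ends and meiosis II begins, and M2 the end of meiosis II. Strain names are not given in the sources used here. The 4 hybrid replicates come from both cross directions, and the labels used here do not say which is which, so cross direction was not analysed.

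The shallowest library held 23453 counts in genes, the deepest 7732384, and the median library 1348916. Levels below are CPM, a library's counts in a gene relative to its total, scaled with edgeR's TMM factors, and differences are log2 ± SE from edgeR's quasi-likelihood test with Benjamini-Hochberg adjusted p over all genes tested; a gene is called where that p is under 0.05. Shallow libraries, those under 350000 counts, numbered 4. In S. cerevisiae these were replicate 2 of M1M2, where 1 count equals 80.3 CPM and the 34 genes together had 66 counts, and replicate 2 of M1, with 10.2 CPM and 327 counts. The hybrid had replicate 3 of M2, with 10.8 CPM and 297 counts, and S. paradoxus replicate 2 of M2, with 2.93 CPM and 1208 counts. Hybrid T0 replicate 1 stood apart in another way: 65.5% of its counts were given to S. paradoxus alleles, against 49.5 to 52% in the other hybrid libraries. The stage labels were checked with meiotic genes: the summed level of 9 meiotic genes, HOP1, DMC1, IME2 and NDT80 among them, was 192 to 1498 CPM over all T0 libraries and 47204 to 97935 over all M2 libraries. At M1 it was 421 to 5816 CPM in S. cerevisiae, where the lowest value lies within the T0 range of 192 to 543, and 3198 to 11662 and 3198 to 6897 in S. paradoxus and the hybrid, above their T0 libraries. The summed level of 5 haploid-specific genes was at most 176 CPM at T0 and 2846 at M2; what part cells of other types have in the results was not tested.

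The upstream sequences of the 34 genes share a feature that the choice of genes did not use. The PAC core, GATGAG, was found on either strand of the window from 250 bases before to 50 bases after the start codon in 30 of 34 genes (88.2%), against 1223 of 6020 protein-coding genes (20.3%). The RRPE core, AAAATTTT, which reads the same on both strands, was found in 23 of 34 (67.6%) against 542 of 6020 (9%). Both were found in 22 of 34 genes (64.7%) against 4.37% of all windows. PAC cores lay 66 to 204 bases before the start codon with a median of 109, and RRPE cores 92 to 225 bases before it with a median of 131.5. Neither was in the windows of UTP22, UTP30 and EMG1. The windows are of the S. cerevisiae S288C reference, so those of the study's strains and of S. paradoxus may differ.

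5 windows are shown, RefSeq R64, plus strand, 5' to 3', with PAC and RRPE cores in capitals: those of NOP1 (YDL014W, chrIV:427114-427413), CBF5 (YLR175W, chrXII:505884-506183), IMP4 (YNL075W, chrXIV:485357-485656), HCA4 (YJL033W, chrX:383587-383886) and ROK1 (YGL171W, chrVII:182140-182439). NOP1, CBF5 and IMP4 stand for the 3 kinds of particle or module, and HCA4 and ROK1 for helicase genes whose course after T0 differed. All 5 hold both cores, and HCA4 has 4 PAC cores in a row, each sharing a base with the next.
NOP1: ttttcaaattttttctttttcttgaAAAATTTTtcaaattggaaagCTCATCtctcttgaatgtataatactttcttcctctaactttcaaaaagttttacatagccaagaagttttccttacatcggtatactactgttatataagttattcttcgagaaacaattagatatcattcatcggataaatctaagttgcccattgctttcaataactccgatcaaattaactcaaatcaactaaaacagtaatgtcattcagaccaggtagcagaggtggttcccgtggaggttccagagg
CBF5: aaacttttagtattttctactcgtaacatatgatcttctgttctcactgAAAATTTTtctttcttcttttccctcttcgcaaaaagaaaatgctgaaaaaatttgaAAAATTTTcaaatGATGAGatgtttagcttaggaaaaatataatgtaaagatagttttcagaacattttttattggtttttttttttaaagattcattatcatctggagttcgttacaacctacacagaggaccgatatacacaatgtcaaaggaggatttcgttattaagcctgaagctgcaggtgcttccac
IMP4: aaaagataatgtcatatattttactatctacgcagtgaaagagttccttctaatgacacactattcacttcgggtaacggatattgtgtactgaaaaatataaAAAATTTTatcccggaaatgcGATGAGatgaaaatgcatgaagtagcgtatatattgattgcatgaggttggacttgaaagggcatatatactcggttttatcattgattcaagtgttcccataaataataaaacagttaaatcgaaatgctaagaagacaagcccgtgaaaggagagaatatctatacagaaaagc
HCA4: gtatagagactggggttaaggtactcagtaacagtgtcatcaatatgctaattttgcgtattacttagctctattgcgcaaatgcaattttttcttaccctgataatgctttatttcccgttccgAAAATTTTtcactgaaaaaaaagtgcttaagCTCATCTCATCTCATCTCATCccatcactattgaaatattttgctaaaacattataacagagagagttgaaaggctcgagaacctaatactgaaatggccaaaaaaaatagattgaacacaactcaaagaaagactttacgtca
ROK1: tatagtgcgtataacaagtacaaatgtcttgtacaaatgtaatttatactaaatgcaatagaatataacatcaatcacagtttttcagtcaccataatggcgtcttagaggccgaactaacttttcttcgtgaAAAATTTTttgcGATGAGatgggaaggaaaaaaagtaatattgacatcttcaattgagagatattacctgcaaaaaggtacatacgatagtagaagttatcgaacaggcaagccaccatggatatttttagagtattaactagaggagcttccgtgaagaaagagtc

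The 34 genes were abundant at T0 in S. cerevisiae and in the hybrid, less so in S. paradoxus, and low in every group after T0. Together they took 2.95, 2.33 and 2.55% of the counts of the S. cerevisiae T0 libraries and 2.09, 2.31, 2.02 and 2.38% of the hybrid T0 libraries. In S. paradoxus at T0 the share was 0.559, 0.537 and 0.888%, below every T0 library of the other genotypes. At M1 it was 0.205 to 0.273% in S. cerevisiae, 0.257 to 0.376% in S. paradoxus and 0.134 to 0.202% in the hybrid. No library after T0 exceeded 0.402%, and none overlapped the T0 range of its own genotype. Counts are shares of a library, and in RNA from whole cultures fewer cells that express a gene and less of its RNA per cell cannot be told apart.

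**Figure D1:**
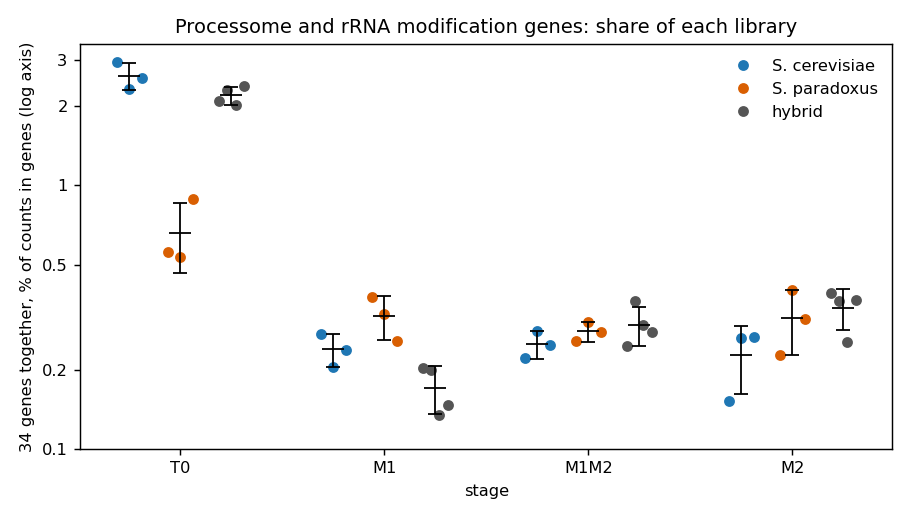
Share of the counts in genes taken by the 34 genes in each of 40 libraries (points, log axis) at 4 stages, with group mean and SD (bars). S. cerevisiae and hybrid T0 libraries lie between 2.02 and 2.95%, S. paradoxus T0 libraries between 0.537 and 0.888%, and all later libraries at or below 0.402%.

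Here and below a gene is said to fall where it was called lower. From T0 to M1, 27 of the 34 genes fell in the hybrid, where 9.41% of all genes tested were called lower. In S. cerevisiae 16 of 34 fell (background 4.78%), and in S. paradoxus 3 of 34 (background 1.94%). None was called higher, and the difference was negative for 34 members in the hybrid, 34 in S. cerevisiae and 27 in S. paradoxus. The median log2 difference over the members was -3.86 in the hybrid, -3.57 in S. cerevisiae and -1.08 in S. paradoxus, beside medians over all genes of -0.06, 0.02 and -0.10. All M1 libraries lay below all T0 libraries for 32 members in the hybrid, 32 in S. cerevisiae and 11 in S. paradoxus, where this held for 14.6, 18.5 and 15.7% of all genes tested.

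At M1M2 against T0, 24 fell in the hybrid (background 12.4%), 16 in S. cerevisiae (5.43%) and 5 in S. paradoxus (5.11%), with member medians of -3.29, -3.42 and -1.47. At M2, 21 fell in the hybrid (14%), 24 in S. cerevisiae (11.6%) and 8 in S. paradoxus (8.24%), with medians of -2.80, -4.0 and -1.36 beside -0.22, 0.00 and -0.33 over all genes. The 3 comparisons of a genotype share its T0 libraries. No member was called higher than at T0 at any stage in any genotype. In the hybrid, S. cerevisiae and S. paradoxus, 34, 34 and 29 members had a negative difference at M1M2, and 33, 34 and 27 at M2. Without hybrid T0 replicate 1, 25, 19 and 15 members fell in the hybrid at M1, M1M2 and M2, with medians of -3.75, -3.16 and -2.86. Calls over all genes, in either direction, went down too, to 326, 593 and 697 from 386, 685 and 803.

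Several counts in the parents were lower when a single library was left out. Shares over all genes are not given for these refits. Whether calls went down alike over all genes was not tested. In S. cerevisiae the count at M1 was 6 without M1 replicate 3; that at M1M2 was 6 without M1M2 replicate 1 or without replicate 3, and 10 without T0 replicate 1; that at M2 was 15 without M2 replicate 3. In S. paradoxus the count at M1 was 0 without M1 replicate 2, and 1 without M1 replicate 1 or T0 replicate 3. At M1M2 it was 2 without M1M2 replicate 1 and 3 without replicate 3, and at M2 it was 5 without M2 replicate 2 and 4 without T0 replicate 3. In the hybrid no single library moved a count against T0 by over 1.5 times. The member medians stayed between -4.27 and -2.60 in S. cerevisiae and the hybrid and between -1.80 and -0.78 in S. paradoxus in these refits.

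**Figure D2:**
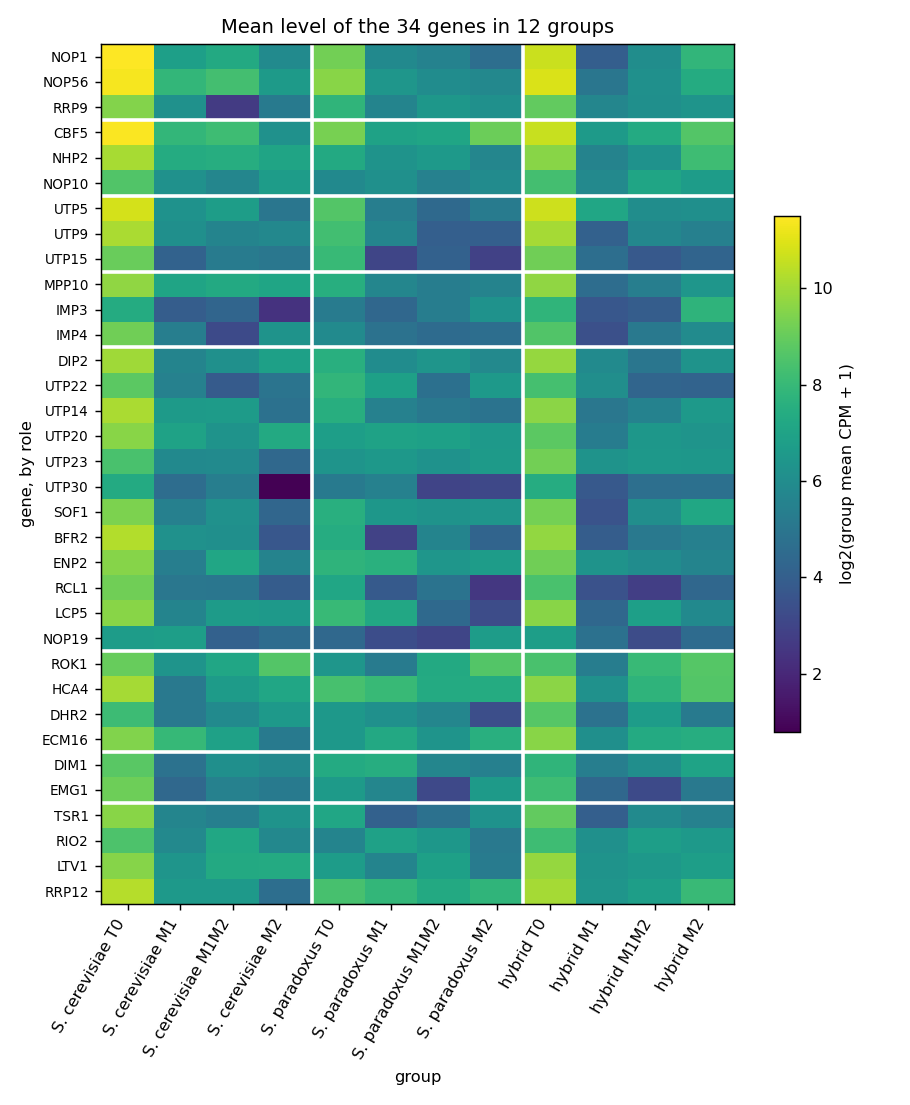
Group mean level of the 34 genes (rows, in blocks by role) in 12 groups (columns), as log2(mean CPM + 1). The T0 columns of S. cerevisiae and the hybrid are the brightest; NOP1, NOP56, CBF5 and UTP5 have the highest mean CPM in both, which is not corrected for gene length.

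**Figure D3:**
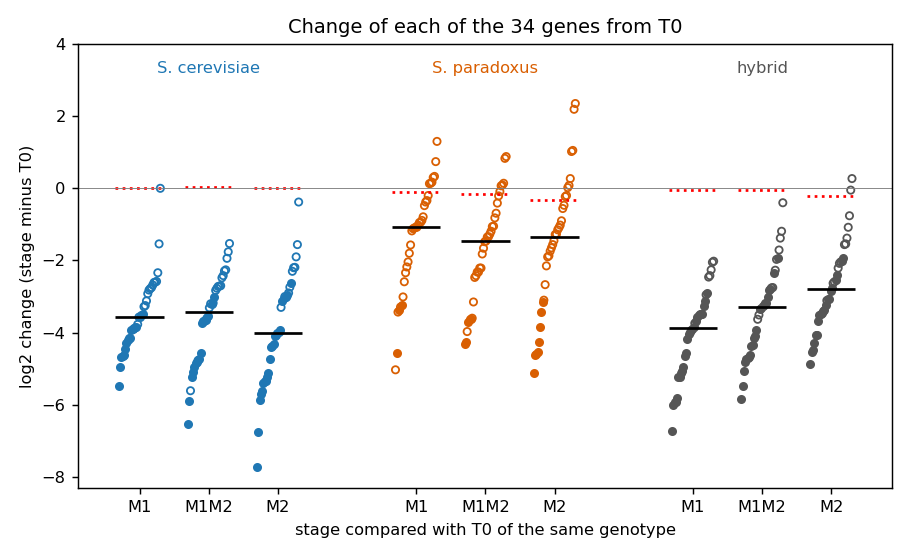
Log2 difference of each of the 34 genes from T0 at M1, M1M2 and M2 in each genotype; filled points are called, open points are not. Black bars are the members' medians (-3.57, -3.42 and -4.0 in S. cerevisiae, -1.08, -1.47 and -1.36 in S. paradoxus, -3.86, -3.29 and -2.80 in the hybrid) and red dotted bars the medians of all genes tested.

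Of the box C/D genes, NOP1 and NOP56 were among the 4 members with the highest CPM, which is not corrected for gene length, at T0 in each genotype, and NOP1 had the deepest fall of all members in the hybrid at M1. NOP1 encodes the methyltransferase of box C/D particles (fibrillarin in animals). In S. cerevisiae its libraries were at 3869, 2630 and 2169 CPM at T0, 138, 122 and 80.4 at M1, 39.7, 402 and 22.9 at M1M2 and 5.69, 91.2 and 81.2 at M2. In S. paradoxus they were at 368, 486 and 952 CPM at T0, 67.7, 18.4 and 87 at M1, 38.6, 56.7 and 42.6 at M1M2 and 42.4, 0 and 29.7 at M2. In the hybrid they were at 1373, 1461, 1827 and 1637 CPM at T0, 8.24, 13, 21.4 and 16.7 at M1, 22.5, 135, 62.9 and 38.5 at M1M2 and 170, 77.6, 629 and 46.4 at M2. All later libraries lay below all T0 libraries of their genotype, and the 4 hybrid M1 libraries lay below all 3 of S. cerevisiae. NOP1 fell in every genotype: in the hybrid with -6.72 ± 0.928 (adjusted p = 2.97e-07) at M1, -4.61 ± 0.837 (adjusted p = 2.44e-05) at M1M2 and -2.84 ± 0.78 (adjusted p = 0.00427) at M2, in S. cerevisiae with -4.67 ± 0.975 (adjusted p = 0.00105) at M1, -5.23 ± 1.11 (adjusted p = 0.000918) at M1M2 and -5.61 ± 1.02 (adjusted p = 2.64e-05) at M2, and in S. paradoxus with -3.37 ± 0.913 (adjusted p = 0.0206) at M1, -3.71 ± 0.927 (adjusted p = 0.00467) at M1M2 and -4.55 ± 0.972 (adjusted p = 0.000454) at M2. In the hybrid at M2 the call ended with RLE factors and in DESeq2 (adjusted p up to 0.077). In S. paradoxus at M1 it ended with RLE factors and without T0 replicate 3, M1 replicate 1 or M1 replicate 2 (adjusted p up to 0.159).

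NOP56 encodes a core protein of the same particles. Its S. cerevisiae libraries were at 4065, 1085 and 2668 CPM at T0, 310, 316 and 70.3 at M1, 89.7, 803 and 55.8 at M1M2 and 111, 81.2 and 101 at M2. Those of S. paradoxus were at 670, 564 and 1114 CPM at T0, 118, 64.9 and 67.8 at M1, 4.71, 50.1 and 136 at M1M2 and 70.3, 5.86 and 85.1 at M2. Hybrid libraries were at 1804, 2003, 1876 and 1802 CPM at T0, 7.32, 37.5, 33.5 and 44.5 at M1, 109, 3.61, 115 and 55.6 at M1M2 and 247, 186, 65 and 157 at M2. The groups after T0 did not overlap T0 in any genotype. NOP56 fell with -5.92 ± 0.899 (adjusted p = 2.23e-06) at M1, -4.72 ± 0.847 (adjusted p = 2.01e-05) at M1M2 and -3.48 ± 0.801 (adjusted p = 0.000612) at M2 in the hybrid, with -3.51 ± 0.928 (adjusted p = 0.0103) at M1, -3.54 ± 1 (adjusted p = 0.0122) at M1M2 and -4.74 ± 0.98 (adjusted p = 0.000179) at M2 in S. cerevisiae and with -3.23 ± 0.914 (adjusted p = 0.0302) at M1, -3.63 ± 0.931 (adjusted p = 0.00599) at M1M2 and -3.84 ± 0.943 (adjusted p = 0.00245) at M2 in S. paradoxus. Single libraries ended the S. cerevisiae calls at M1 (T0 replicate 1, M1 replicate 3) and M1M2 (T0 replicate 1, M1M2 replicates 1 and 3), with adjusted p up to 0.0877. In S. paradoxus the M1 call ended with RLE factors and without T0 replicate 3 or any M1 library (up to 0.15), and the M1M2 call without M1M2 replicate 1 (0.0759).

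RRP9 encodes a protein particular to the U3 particle. S. cerevisiae libraries were at 869, 777 and 520 CPM at T0, 96.6, 40.7 and 80.4 at M1, 10.6, 0 and 5.38 at M1M2 and 64.2, 5.01 and 35 at M2. S. paradoxus libraries were at 144, 208 and 316 CPM at T0, 79.3, 7.06 and 60.5 at M1, 37.2, 84.1 and 143 at M1M2 and 77.8, 0 and 133 at M2. Hybrid libraries were at 493, 564, 270 and 606 CPM at T0, 25.6, 40.7, 5.24 and 132 at M1, 59.2, 74.9, 77.8 and 61.1 at M1M2 and 166, 99.8, 0 and 56.5 at M2. In S. cerevisiae RRP9 was lowest at M1M2, where 1 library had no count, and in the hybrid its libraries after T0 all lay below T0. In S. cerevisiae it fell at M1M2 with -6.52 ± 1.43 (adjusted p = 0.0013) and at M2 with -4.37 ± 1.18 (adjusted p = 0.00397), while the difference at M1 was -3.28 ± 1.12 (adjusted p = 0.0531). The M1 difference was called with RLE factors and by DESeq2. In the hybrid it fell with -3.25 ± 0.969 (adjusted p = 0.0168) at M1, -2.82 ± 0.949 (adjusted p = 0.0238) at M1M2 and -2.53 ± 0.939 (adjusted p = 0.0387) at M2. In S. paradoxus it was not called at any stage, with -2.18 ± 1.07 (adjusted p = 0.329) at M1, -1.34 ± 1.04 (adjusted p = 0.561) at M1M2 and -1.65 ± 1.05 (adjusted p = 0.329) at M2. The hybrid calls were near the threshold: leaving out any of 5 libraries at M1 (T0 replicates 2 and 4, M1 replicates 1, 2 and 3), any but T0 replicate 3 at M1M2, and any of 6 at M2 (T0 replicates 1, 2 and 4, M2 replicates 2, 3 and 4), or the shallow libraries together at M2, ended them, with adjusted p up to 0.0932.

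CBF5 encodes the pseudouridine synthase of H/ACA particles (dyskerin in humans). It stood at 3610, 2257 and 2341 CPM at T0, 190, 295 and 216 at M1, 86.4, 643 and 128 at M1M2 and 4.88, 56.2 and 160 at M2 in S. cerevisiae. In S. paradoxus CBF5 libraries were at 526, 612 and 755 CPM at T0, 89.9, 230 and 55.8 at M1, 83.9, 169 and 156 at M1M2 and 189, 765 and 667 at M2. Hybrid libraries were at 1806, 1477, 2017 and 829 CPM at T0, 22, 43.5, 86.3 and 237 at M1, 161, 164, 187 and 140 at M1M2 and 587, 363, 325 and 315 at M2. The S. paradoxus M2 libraries spanned the range of its T0 libraries, while M2 and T0 stayed apart in S. cerevisiae and the hybrid. CBF5 fell with -3.56 ± 0.824 (adjusted p = 0.00284) at M1, -3.66 ± 0.882 (adjusted p = 0.00302) at M1M2 and -5.23 ± 0.889 (adjusted p = 8.5e-06) at M2 in S. cerevisiae and with -3.99 ± 0.725 (adjusted p = 5.67e-05) at M1, -3.23 ± 0.699 (adjusted p = 0.000334) at M1M2 and -1.94 ± 0.666 (adjusted p = 0.0236) at M2 in the hybrid. The S. paradoxus differences were -2.34 ± 0.78 (adjusted p = 0.0874) at M1, -2.21 ± 0.775 (adjusted p = 0.0602) at M1M2 and -0.23 ± 0.742 (adjusted p = 0.885) at M2, none called by edgeR; that at M1M2 was called by DESeq2 and without the shallow libraries. The hybrid call at M2 ended with RLE factors, in DESeq2 and without T0 replicate 1, T0 replicate 3, M2 replicate 2 or M2 replicate 4 (up to 0.0768).

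The other H/ACA genes were NHP2, an RNA-binding core protein, and NOP10, a small core protein that binds Cbf5. NHP2 was at 344, 514, 988 and 1215 CPM in the hybrid at T0 and 85.1, 46.8, 45.2 and 10 at M1. It fell there with -4.03 ± 1.04 (adjusted p = 0.00519) and at M1M2 with -3.32 ± 1.01 (adjusted p = 0.0114), and the M2 libraries (251, 359, 0 and 544) overlapped T0. In S. cerevisiae NHP2 fell at M2 with -3.04 ± 1.15 (adjusted p = 0.0463) and was not called earlier. NOP10 was not called by edgeR against T0 in any genotype; its differences ran from -3.20 in S. cerevisiae at M1M2 to 0.30 in S. paradoxus at M1.

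The UTP-A module binds the start of the precursor and begins processome assembly. All 3 of its genes were called in S. paradoxus at M2, where 8.24% of all genes were called lower. UTP5 in S. cerevisiae was at 1987, 1370 and 2046 CPM at T0, 99.3, 91.7 and 31.4 at M1, 23.5, 241 and 56.5 at M1M2 and 1.63, 65.2 and 25.2 at M2. In S. paradoxus it was at 263, 345 and 589 CPM at T0, 2.12, 62.1 and 57.4 at M1, 0.942, 38.8 and 23.1 at M1M2 and 21.7, 0 and 89.1 at M2. Hybrid UTP5 was at 1112, 1570, 1840 and 2114 CPM at T0, 481, 33.2, 35.9 and 14.5 at M1, 30.6, 25.3, 179 and 25.5 at M1M2 and 62.9, 60.3, 0 and 156 at M2. Later libraries lay below T0 in each genotype, and hybrid M1 replicate 1 (481 CPM) was far above the other 3 M1 libraries. UTP5 fell with -4.63 ± 1.23 (adjusted p = 0.0104) at M1, -4.84 ± 1.36 (adjusted p = 0.0117) at M1M2 and -5.88 ± 1.3 (adjusted p = 0.000451) at M2 in S. cerevisiae and with -3.56 ± 1 (adjusted p = 0.0113) at M1, -4.68 ± 1.06 (adjusted p = 0.000576) at M1M2 and -4.49 ± 1.05 (adjusted p = 0.000752) at M2 in the hybrid. In S. paradoxus it fell at M1M2 with -4.25 ± 1.2 (adjusted p = 0.0139) and at M2 with -3.43 ± 1.17 (adjusted p = 0.0351), with -3.29 ± 1.15 (adjusted p = 0.116) at M1.

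UTP9 fell in the hybrid with -6.01 ± 0.972 (adjusted p = 6.97e-06) at M1, -4.33 ± 0.895 (adjusted p = 0.000181) at M1M2 and -4.53 ± 0.908 (adjusted p = 0.000101) at M2, and UTP15 with -4.57 ± 1.31 (adjusted p = 0.0124) at M1, -5.48 ± 1.36 (adjusted p = 0.00177) at M1M2 and -4.87 ± 1.33 (adjusted p = 0.0041) at M2. In S. paradoxus UTP9 fell at M1M2 with -4.31 ± 1.04 (adjusted p = 0.00336) and at M2 with -4.26 ± 1.05 (adjusted p = 0.00251), and UTP15 at M2 with -5.13 ± 1.57 (adjusted p = 0.0174). All 3 UTP-A genes were called in the hybrid at each stage, and in S. cerevisiae at M1 and M2. The shares of all genes called lower were 9.41, 12.4 and 14% in the hybrid, and 4.78 and 11.6% in S. cerevisiae. The UTP5 calls ended in S. cerevisiae at M1 without M1 replicate 3 and at M1M2 without M1M2 replicate 1 or 3, and in the hybrid at M1 without M1 replicate 3 or 4 (adjusted p up to 0.0827). In S. paradoxus they ended at M1M2 without M1M2 replicate 1 or 3, and at M2 with RLE factors, without the shallow libraries and without T0 replicate 3, M2 replicate 1 or M2 replicate 2 (up to 0.186). That of UTP15 in S. paradoxus ended without the shallow libraries, T0 replicate 3, M2 replicate 2 or M2 replicate 3 (up to 0.0874). In S. cerevisiae the UTP15 call at M1, the deepest of the 34 there, ended with a replicate block and without T0 replicate 1, M1 replicate 1 or M1 replicate 3 (up to 0.108).

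Mpp10, Imp3 and Imp4 form a complex that joins U3 to the precursor. MPP10 was at 1140, 744 and 625 CPM at T0, 91.4, 183 and 122 at M1, 68.8, 321 and 75.3 at M1M2 and 118, 190 and 101 at M2 in S. cerevisiae. S. paradoxus had 153, 106 and 280 CPM at T0, 4.23, 113 and 38.9 at M1, 4.24, 52.5 and 60.2 at M1M2 and 109, 2.93 and 27.7 at M2. The hybrid had 655, 866, 842 and 982 CPM at T0, 9.15, 39.1, 25 and 22.2 at M1, 67.8, 52.4, 15.7 and 24.3 at M1M2 and 99.3, 111, 10.8 and 120 at M2. Each later hybrid and S. cerevisiae library lay below T0, and in S. paradoxus the M1 and M2 groups overlapped it. MPP10 fell in the hybrid with -5.11 ± 0.937 (adjusted p = 6.18e-05) at M1, -4.38 ± 0.903 (adjusted p = 0.000176) at M1M2 and -3.24 ± 0.859 (adjusted p = 0.00297) at M2. In S. cerevisiae it fell at M2 with -2.62 ± 0.963 (adjusted p = 0.0404), a call that ended without T0 replicate 1 or without any of the M2 libraries (adjusted p up to 0.121). It was also called there at M1 by DESeq2 and without the shallow libraries, and at M1M2 by both, with RLE factors and without M1M2 replicate 2. A call appeared in S. paradoxus at M2 without M2 replicate 1; the differences there were -1.80 ± 0.94 (adjusted p = 0.374) at M1, -2.21 ± 0.952 (adjusted p = 0.154) at M1M2 and -1.90 ± 0.941 (adjusted p = 0.187) at M2.

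IMP4 counts were low and spread widely. S. cerevisiae libraries were at 745, 458 and 552 CPM at T0, 1.24, 0 and 119 at M1, 22.2, 0 and 2.69 at M1M2 and 0, 170 and 64.4 at M2. S. paradoxus libraries were at 67.7, 3.15 and 110 CPM at T0, 68.8, 0 and 14.5 at M1, 0, 44.4 and 21.3 at M1M2 and 27.8, 0 and 45.5 at M2. Those of the hybrid were at 501, 380, 262 and 410 CPM at T0, 0, 34.6, 3.23 and 1.11 at M1, 39.1, 0, 23.9 and 72.4 at M1M2 and 69.6, 65, 0 and 113 at M2. T0 libraries were apart from later ones in S. cerevisiae and the hybrid, and each group after T0 had 1 library without a count. IMP4 fell in the hybrid at M1 with -5.24 ± 1.57 (adjusted p = 0.0171), a call that ended without M1 replicate 1, 3 or 4 (adjusted p up to 0.0754). EdgeR did not call it in the other 8 comparisons with T0, but in S. cerevisiae it was called at M1M2 with RLE factors, without the count filter and by DESeq2, and at M1 without M1 replicate 3. IMP3 fell in the hybrid at M1 with -4.18 ± 1.4 (adjusted p = 0.0392) and at M1M2 with -3.92 ± 1.38 (adjusted p = 0.0326); its hybrid M2 libraries, at 60.8, 111, 368 and 321 CPM, overlapped T0 (223, 102, 302 and 260). In S. cerevisiae it fell at M2 with -5.33 ± 1.74 (adjusted p = 0.019), with 12 counts in all in the 3 M2 libraries.

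Among the 12 other processome genes, 8 fell in the hybrid at M1, 9 at M1M2 and 9 at M2, beside 9.41, 12.4 and 14% of all genes. In S. cerevisiae the counts were 7, 7 and 10, beside 4.78, 5.43 and 11.6%. In S. paradoxus they were 1, 1 and 3, beside 1.94, 5.11 and 8.24%. DIP2, a WD-repeat subunit of the UTP-B module, had the highest mean count of the class over the 40 libraries. It was at 1054, 668 and 1319 CPM at T0, 76.1, 61.1 and 6.28 at M1, 32.8, 161 and 18.8 at M1M2 and 206, 45.1 and 99.4 at M2 in S. cerevisiae. In S. paradoxus it was at 189, 34.6 and 341 CPM at T0, 166, 2.82 and 22 at M1, 125, 58.1 and 63.9 at M1M2 and 49.7, 0 and 119 at M2. In the hybrid it was at 605, 909, 1077 and 973 CPM at T0, 24.7, 52.1, 29 and 130 at M1, 39.4, 1.81, 41.9 and 42.7 at M1M2 and 104, 91.6, 10.8 and 103 at M2. S. paradoxus T0 replicate 2, at 34.6 CPM, lay within the later S. paradoxus libraries, while the other genotypes showed no overlap with T0. DIP2 fell with -3.92 ± 0.984 (adjusted p = 0.0038) at M1, -4.81 ± 1.03 (adjusted p = 0.000276) at M1M2 and -3.46 ± 0.965 (adjusted p = 0.00482) at M2 in the hybrid and with -4.44 ± 1.18 (adjusted p = 0.0104) at M1, -4.72 ± 1.33 (adjusted p = 0.0115) at M1M2 and -3.12 ± 1.09 (adjusted p = 0.0306) at M2 in S. cerevisiae. In S. paradoxus the differences were -1.57 ± 1.04 (adjusted p = 0.535) at M1, -1.19 ± 1.02 (adjusted p = 0.609) at M1M2 and -1.74 ± 1.05 (adjusted p = 0.295) at M2. The S. cerevisiae calls ended at M1 without M1 replicate 3, at M1M2 without M1M2 replicate 1 or 3, and at M2 without T0 replicate 1, T0 replicate 3, M2 replicate 2 or M2 replicate 3 (up to 0.131).

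BFR2 was the one gene of this class called in S. paradoxus at M1, with -4.56 ± 1.21 (adjusted p = 0.0174); the call ended without M1 replicate 1 or 2 (up to 0.112). LCP5, a U3-associated protein, was called there at M1M2, with -3.62 ± 1.09 (adjusted p = 0.0233), which ended without T0 replicate 2, T0 replicate 3, M1M2 replicate 1 or M1M2 replicate 3 (up to 0.171). At M2 the S. paradoxus calls were LCP5 with -4.61 ± 1.15 (adjusted p = 0.00288), RCL1, a cyclase-like protein, with -4.59 ± 1.4 (adjusted p = 0.017), and BFR2 with -3.16 ± 1.13 (adjusted p = 0.048). The BFR2 call at M2 held in 2 of 11 alternatives, and that of RCL1 ended without the shallow libraries, T0 replicate 3, M2 replicate 2 or M2 replicate 3 (up to 0.0897).

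In S. cerevisiae at M2 the deepest fall was that of UTP30, with -7.72 ± 2.15 (adjusted p = 0.00539), where its 3 libraries held 2 counts in all and the fitted fold depends on the model's prior count. BFR2 was next with -6.74 ± 1.34 (adjusted p = 0.000108). In S. cerevisiae at M1M2 the lowest 2 were RRP9 and RCL1, the latter with -5.89 ± 1.72 (adjusted p = 0.0155), a call that ended without M1M2 replicate 1 or 3 (up to 0.125). NOP19 was not called by edgeR against T0 in any genotype, and S. cerevisiae M1 replicate 2 held it at 306 CPM beside 21.6 and 1.26 in replicates 1 and 3. The highest member in S. paradoxus at M2 was also NOP19, with 2.35 ± 1.72 (adjusted p = 0.414).

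Of the 4 helicase genes, 4 fell in the hybrid at M1 and 1 in S. cerevisiae, beside 9.41 and 4.78% of all genes. HCA4 encodes a DEAD-box helicase that releases guide RNAs from the precursor. It was at 1391, 825 and 1009 CPM at T0, 68, 30.6 and 3.77 at M1, 102, 161 and 40.4 at M1M2 and 216, 131 and 67.2 at M2 in S. cerevisiae. In S. paradoxus HCA4 was at 231, 361 and 414 CPM at T0, 177, 460 and 136 at M1, 129, 199 and 159 at M1M2 and 158, 276 and 65.3 at M2. Hybrid HCA4 was at 882, 1044, 485 and 814 CPM at T0, 165, 64.4, 45.6 and 14.5 at M1, 131, 367, 166 and 186 at M1M2 and 147, 112, 1008 and 299 at M2. S. paradoxus M1 and M2 and hybrid M2 libraries overlapped T0, and the S. cerevisiae libraries did not. HCA4 fell with -4.94 ± 0.965 (adjusted p = 0.000583) at M1, -3.68 ± 0.964 (adjusted p = 0.00682) at M1M2 and -2.96 ± 0.867 (adjusted p = 0.00859) at M2 in S. cerevisiae and in the hybrid with -3.48 ± 0.769 (adjusted p = 0.000861) at M1 and -1.92 ± 0.721 (adjusted p = 0.0451) at M1M2, with -1.08 ± 0.71 (adjusted p = 0.273) at M2. S. paradoxus differences were -0.38 ± 0.806 (adjusted p = 0.895) at M1, -1.05 ± 0.813 (adjusted p = 0.561) at M1M2 and -1.02 ± 0.816 (adjusted p = 0.465) at M2. The hybrid call at M1M2 ended in 9 of 13 alternatives, among them RLE factors, no count filter and leaving out any hybrid T0 library or M1M2 replicate 1, 3 or 4 (up to 0.138), and HCA4 was called at M2 without the shallow libraries or M2 replicate 3. The S. cerevisiae call ended at M1M2 without M1M2 replicate 3 and at M2 without M2 replicate 3.

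ROK1, a DEAD-box helicase that releases snR30 from the precursor, was below T0 at M1 in S. cerevisiae and the hybrid. It overlapped T0 by M2 in each genotype. In S. cerevisiae it was at 544, 495 and 509 CPM at T0, 31.1, 132 and 73.5 at M1, 25.5, 80.3 and 315 at M1M2 and 45.5, 563 and 585 at M2. In S. paradoxus it was at 72.2, 37 and 147 CPM at T0, 45.5, 12.7 and 53.9 at M1, 311, 52.5 and 108 at M1M2 and 182, 897 and 95 at M2. In the hybrid it was at 385, 340, 531 and 104 CPM at T0, 94.3, 16.4, 37.1 and 7.79 at M1, 253, 449, 184 and 146 at M1M2 and 266, 227, 10.8 and 1118 at M2. M2 and T0 libraries overlapped in each genotype, and so did S. paradoxus M1 and M1M2 and hybrid M1M2 libraries with their T0. ROK1 fell in the hybrid at M1 with -3.13 ± 0.921 (adjusted p = 0.0155). Its differences at M2 were 0.27 ± 0.846 (adjusted p = 0.852) in the hybrid, -0.38 ± 0.977 (adjusted p = 0.833) in S. cerevisiae and 2.19 ± 1.02 (adjusted p = 0.152) in S. paradoxus, the highest or second highest of the 34 in each. DHR2 and ECM16, both DEAH-box helicases, fell in the hybrid at M1 with -3.90 ± 1.15 (adjusted p = 0.0162) and -3.48 ± 0.987 (adjusted p = 0.0117), and DHR2 fell there at M2 with -3.41 ± 1.13 (adjusted p = 0.019). In S. cerevisiae ECM16 fell at M2 with -4.32 ± 1.19 (adjusted p = 0.00486) and DHR2 was not called.

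**Figure D4:**
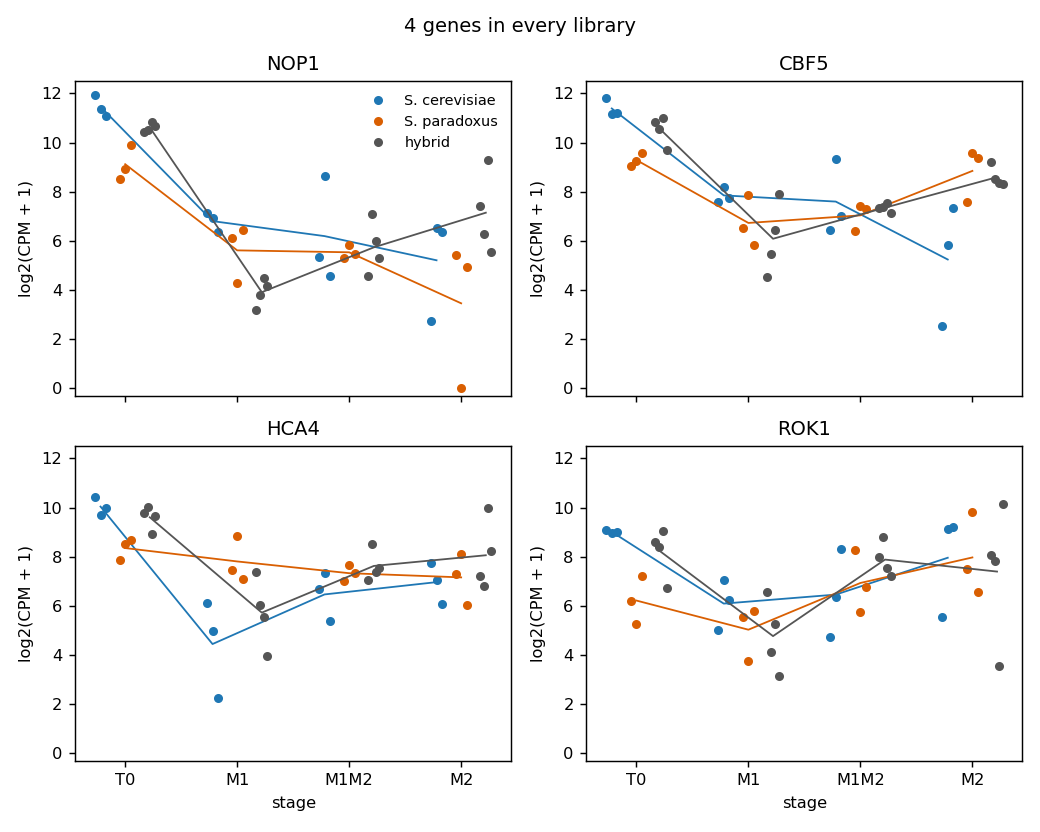
Level of NOP1, CBF5, HCA4 and ROK1 in every library (points, log2(CPM + 1)) at 4 stages; lines join group means of the plotted values. NOP1 was low after T0 in all genotypes; CBF5 in S. paradoxus (189, 765 and 667 CPM at M2) and ROK1 in each genotype overlapped its T0 libraries at M2.

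DIM1, the dimethyltransferase of 18S rRNA, was not called by edgeR in the 40-library fit at any stage. It was at 456, 537 and 294 CPM at T0, 26.3, 10.2 and 45.8 at M1, 81.1, 80.3 and 44.4 at M1M2 and 0.813, 122 and 37.8 at M2 in S. cerevisiae. S. paradoxus DIM1 was at 173, 178 and 129 CPM at T0, 286, 198 and 41.3 at M1, 37.2, 38.8 and 75.9 at M1M2 and 47.9, 35.2 and 47.5 at M2. The hybrid libraries were at 357, 311, 107 and 107 CPM at T0, 11.9, 144, 3.63 and 3.34 at M1, 51.8, 18.1, 106 and 95 at M1M2 and 77, 139, 0 and 296 at M2. S. cerevisiae libraries after T0 lay below T0; hybrid M1 and M2 libraries overlapped it. The differences from T0 were -3.87 ± 1.31 (adjusted p = 0.0501) at M1, -2.71 ± 1.31 (adjusted p = 0.179) at M1M2 and -3.0 ± 1.25 (adjusted p = 0.0747) at M2 in S. cerevisiae, -2.42 ± 1.06 (adjusted p = 0.128) at M1, -1.71 ± 1.03 (adjusted p = 0.249) at M1M2 and -0.76 ± 1.01 (adjusted p = 0.623) at M2 in the hybrid and 0.13 ± 1.16 (adjusted p = 0.99) at M1, -1.66 ± 1.19 (adjusted p = 0.513) at M1M2 and -1.87 ± 1.2 (adjusted p = 0.335) at M2 in S. paradoxus. DIM1 was called in S. cerevisiae at M1 with RLE factors and by DESeq2, at M2 by DESeq2 and without the shallow libraries or M2 replicate 2, and in the hybrid at M1 without M1 replicate 2. EMG1, the other 18S rRNA methyltransferase, fell in the hybrid at M1 with -3.83 ± 1.29 (adjusted p = 0.0395) and at M1M2 with -5.06 ± 1.37 (adjusted p = 0.00416), and in S. cerevisiae at M1 with -4.66 ± 1.56 (adjusted p = 0.0476) and at M2 with -3.98 ± 1.5 (adjusted p = 0.046).

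RRP12, a HEAT-repeat export factor, had the highest CPM of the late 40S genes at T0; per kb of coding length LTV1 was higher in S. cerevisiae (536 against 343 CPM per kb) and in the hybrid (649 against 285). RRP12 was at 1668, 668 and 1462 CPM at T0, 85.8, 183 and 13.8 at M1, 65.9, 80.3 and 129 at M1M2 and 44.7, 1 and 26.6 at M2 in S. cerevisiae. In S. paradoxus RRP12 was at 161, 518 and 312 CPM at T0, 309, 250 and 151 at M1, 127, 154 and 194 at M1M2 and 242, 5.86 and 422 at M2. In the hybrid it was at 1357, 918, 832 and 1089 CPM at T0, 75.1, 81.6, 125 and 44.5 at M1, 206, 13.5, 88.3 and 128 at M1M2 and 271, 209, 455 and 114 at M2. The S. paradoxus groups overlapped T0 at every stage and the other genotypes at none. RRP12 fell with -3.84 ± 0.982 (adjusted p = 0.00768) at M1, -3.74 ± 1.01 (adjusted p = 0.00858) at M1M2 and -5.71 ± 1.06 (adjusted p = 3.87e-05) at M2 in S. cerevisiae and with -3.68 ± 0.83 (adjusted p = 0.0011) at M1, -3.26 ± 0.813 (adjusted p = 0.0018) at M1M2 and -2.02 ± 0.779 (adjusted p = 0.0469) at M2 in the hybrid. S. paradoxus differences were -0.48 ± 0.863 (adjusted p = 0.875) at M1, -1.06 ± 0.87 (adjusted p = 0.589) at M1M2 and -0.56 ± 0.865 (adjusted p = 0.744) at M2. The hybrid call at M2 ended in 9 of 13 alternatives, among them RLE factors, DESeq2 and leaving out any T0 library or M2 replicate 1, 2 or 4 (up to 0.202). The S. cerevisiae calls ended at M1 without M1 replicate 3 and at M1M2 without M1M2 replicate 1 (up to 0.0569).

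Of the other late factors, TSR1, which blocks early subunit joining, and LTV1, an export adaptor, fell in the hybrid at each stage, TSR1 with -4.95 ± 1.25 (adjusted p = 0.00417) and LTV1 with -3.52 ± 0.949 (adjusted p = 0.00758) at M1. RIO2, a kinase that acts on pre-40S particles, was not called by edgeR against T0; its differences ran from -2.74 in S. cerevisiae at M2 to 1.3 in S. paradoxus at M1, the highest of the 34 there.

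Between successive stages the one call was SOF1, a WD-repeat processome protein, which rose in the hybrid from M1 (2.75, 19.4, 11.3 and 8.9 CPM) to M1M2 (83.2, 109, 33.7 and 43.1 CPM), with 1 of 34 called beside 7.4% of all genes. The groups did not overlap and the difference was 2.63 ± 0.864 (adjusted p = 0.0483). This call ended with RLE factors, with a replicate block, without the count filter and without any M1 library other than replicate 2 or any M1M2 library (adjusted p up to 0.188). ROK1 had 2.73 ± 0.905 (adjusted p = 0.0502) in the same step. In the hybrid 26 of 34 members had a positive difference from M1 to M1M2 (median 0.72, beside 0.11 over all genes) and 26 from M1M2 to M2 (median 0.64, beside -0.08), the latter with 0 called (background 0.679%).

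In the parents no member was called by edgeR in either step. The background was 2.33% in S. cerevisiae from M1 to M1M2, 9.11% from M1M2 to M2, 1.84% in S. paradoxus from M1 to M1M2 and 0% from M1M2 to M2. In these 4 steps 1, 2, 3 and 3 members had an unadjusted p under 0.05, and in the hybrid from M1M2 to M2 there were 3. DESeq2 called 1, 1, 0 and 0 members in the parents, beside 6.18, 13.2, 3.36 and 1.38% of all genes, and 2 in that hybrid step, beside 8.57%.

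At T0 itself the species differed in the same direction in all 34 genes, though edgeR called none. The difference, S. paradoxus minus S. cerevisiae, had a median of -2.18 (a fold of 4.53) beside 0.12 over all genes tested, and ran from -3.28 for IMP4 to -0.98 for UTP22. S. paradoxus T0 libraries lay below all S. cerevisiae T0 libraries for 30 of 34 members, beside 18.9% of all genes tested; NOP56, UTP15, UTP22 and DHR2 overlapped. The lowest adjusted p were those of UTP20, with -2.81 ± 1.01 (adjusted p = 0.0951), and CBF5, with -2.12 ± 0.771 (adjusted p = 0.0989). Of all genes tested 5.04% were called. Of the members 17 had an unadjusted p under 0.05. Counts at that threshold, here and elsewhere, have no share of all genes beside them, since it was not computed. DESeq2 called 11 members beside 11.6% of all genes. EdgeR called 10 beside 10% when the 4 shallow libraries, none of them a T0 library, were left out of the shared fit. NOP1 at T0 averaged 2889 ± 879 CPM (SD, n = 3) in S. cerevisiae and 602 ± 309 in S. paradoxus.

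By the members' medians, hybrid levels at T0 lay closer to S. cerevisiae than to S. paradoxus. Hybrid minus S. cerevisiae had a median of -0.36 over the members (beside 0.12 over all genes), from -0.97 for EMG1 to 0.79 for UTP23, and 25 of 34 were negative. Hybrid minus S. paradoxus was positive for all 34, with a median of 2.00 (beside 0.02), from 0.47 for DIM1 to 3.11 for LTV1, and all hybrid libraries lay above all S. paradoxus libraries for 26 of 34, beside 10.3% of all genes. EdgeR called 0 in both (background 0.84% and 2.1%); 0 and 13 had an unadjusted p under 0.05, and DESeq2 called 0 and 2 beside 2.61 and 4.83% of all genes. Both comparisons use the same hybrid libraries, and the 3 genotype pairs share libraries throughout. Without hybrid T0 replicate 1 the medians were -0.51 and 1.92.

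Within the hybrid at T0 the alleles of the 34 genes differed little in the median. Of member counts 70.8, 51.1, 46.9 and 51.5% went to the S. paradoxus allele in the 4 libraries, beside 65.5, 51.8, 51.4 and 49.5% of all counts in genes. NOP1 had 1046 S. cerevisiae and 2524 S. paradoxus counts in replicate 1, the library that stood apart, 2223 and 1999 in replicate 2, 472 and 643 in replicate 3, and 221 and 314 in replicate 4. The allele difference, S. paradoxus minus S. cerevisiae, had a median of 0.12 over the members (0.18 over all genes), with 16 of 34 negative and a range from -2.41 for UTP22 to 1.85 for NOP19. EdgeR, with the library as a block, called 0 (background 0.133%), 0 had an unadjusted p under 0.05, and DESeq2 called 0. Without replicate 1 the median was 0.17 and 0 were called.

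Set side by side, the parental difference was below the allele difference in 33 of 34 genes at T0, UTP22 being the exception. The share of all genes for which this holds was not computed. The fitted contrast of the 2 differences, added after the data were seen and fitted without a library block, was negative for all 34 with a median of -2.55 (beside -0.16 over all genes). EdgeR called 0 members there (background 0.809%), and 5 had an unadjusted p under 0.05; DESeq2 was not run on it. At M1, M1M2 and M2 the same contrast had medians of 0.22, -0.70 and -0.40, with 16, 23 and 20 of 34 negative.

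**Figure D5:**
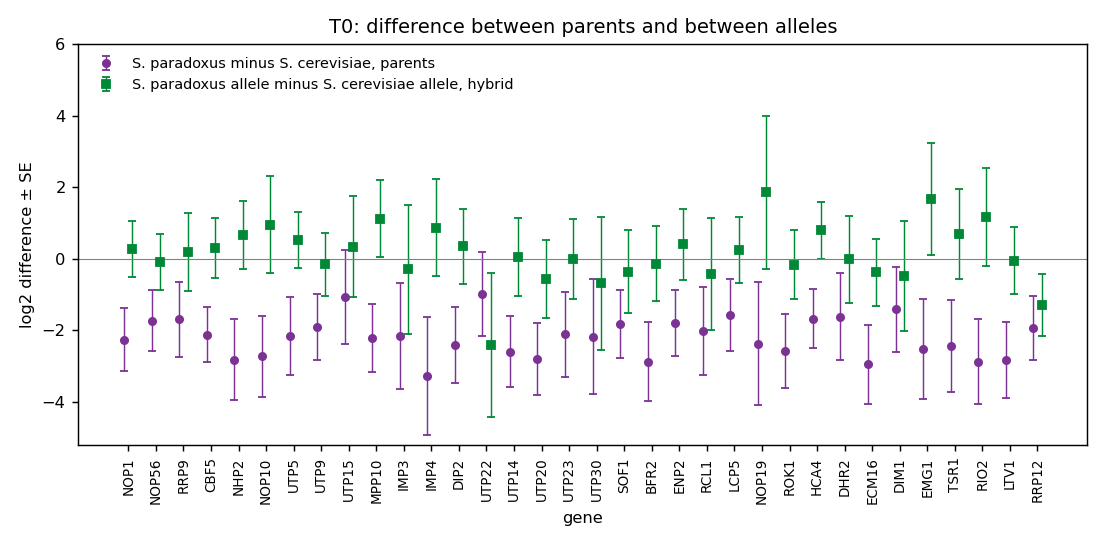
For each of the 34 genes at T0, the log2 difference between the parents (circles) and between the alleles in the hybrid (squares), both S. paradoxus minus S. cerevisiae, with SE bars. The circles are all below 0 (median -2.18); the squares scatter around it (median 0.12).

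Between the parents the members' medians were smaller after T0. At M1, M1M2 and M2 they were -0.58, -0.33 and -0.04, with 0, 0 and 1 called beside 2.84, 3.39 and 2.13% of all genes. At M1 and M1M2, 4 and 1 members had an unadjusted p under 0.05, and DESeq2 called 2 and 1 beside 7.34 and 6.12% of all genes. CBF5 was the call at M2, higher in S. paradoxus (189, 765 and 667 CPM) than in S. cerevisiae (4.88, 56.2 and 160 CPM) by 2.88 ± 0.801 (adjusted p = 0.0359). That call ended without the shallow libraries and without S. cerevisiae M2 replicate 1 or 2 or S. paradoxus M2 replicate 2 or 3 (adjusted p up to 0.184). HCA4 at M1 was next, with 2.88 ± 0.887 (adjusted p = 0.0594).

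The change from T0 was smaller in S. paradoxus than in S. cerevisiae for most members. The difference of the changes, S. paradoxus minus S. cerevisiae, was positive for 32 of 34 at M1 (median 2.29), 31 at M1M2 (2.14) and 31 at M2 (2.33), beside medians of -0.07, -0.12 and -0.24 over all genes. EdgeR called 1, 0 and 2 members, where 1.97, 2.62 and 1.52% of all genes were called. At M1M2 5 had an unadjusted p under 0.05 and DESeq2 called 1, beside 4.87% of all genes. HCA4 was the call at M1, with 4.56 ± 1.21 (adjusted p = 0.0265). It ended without S. cerevisiae T0 replicate 1, M1 replicate 2 or M1 replicate 3, or without S. paradoxus T0 replicate 1, T0 replicate 2 or M1 replicate 2 (up to 0.0845).

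At M2 the calls were CBF5, with 5.0 ± 1.11 (adjusted p = 0.00983), and RRP12, with 5.15 ± 1.3 (adjusted p = 0.0279). CBF5 stayed called in all alternatives run, with adjusted p of at most 0.0456. RRP12 was not called without S. cerevisiae T0 replicate 1, T0 replicate 3, M2 replicate 2 or M2 replicate 3, or without S. paradoxus T0 replicate 1, T0 replicate 3 or M2 replicate 3 (up to 0.11). IMP3, UTP30 and ECM16 had larger estimates that were not called; that of IMP3 was 6.38 ± 2.22 (adjusted p = 0.14).

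Against the parents' levels after T0, the hybrid differed in few members. At M1 it was lower than S. cerevisiae in NOP1, with -2.92 ± 0.825 (adjusted p = 0.0227), and NOP56, with -2.90 ± 0.82 (adjusted p = 0.0227), 2 of 34 beside 5.37% of all genes. No library of one group overlapped the other for either gene. The NOP1 call ended without hybrid M1 replicate 1, 2 or 4 or S. cerevisiae M1 replicate 1 (up to 0.103), and that of NOP56 without hybrid M1 replicate 1, 3 or 4 or S. cerevisiae M1 replicate 1 or 2 (up to 0.128). At M1M2 0 were called (8.34%), 2 had an unadjusted p under 0.05 and DESeq2 called 1, beside 11% of all genes. At M2 RRP12 was higher in the hybrid than in S. cerevisiae by 3.42 ± 0.936 (adjusted p = 0.0488), 1 of 34 beside 1.16%; this ended without any hybrid M2 library other than replicate 4 or any S. cerevisiae M2 library (up to 0.318).

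Hybrid minus S. paradoxus gave 0 calls at M1, M1M2 and M2, where 1.42, 0.84 and 0.873% of all genes were called. Members with an unadjusted p under 0.05 numbered 4, 1 and 4, and DESeq2 called 1, 0 and 1 beside 2.48, 1.48 and 7% of all genes. The nearest was NOP1 at M2, with 3.10 ± 0.896 (adjusted p = 0.0766). Its highest hybrid M2 value came from shallow replicate 3, with 58 counts at 10.8 CPM each. Shallow S. paradoxus M2 replicate 2 held no NOP1 count. The change from T0 in the hybrid minus the mean of the parental changes was negative for 32 of 34 members at M1 (median -1.51), 25 at M1M2 (-0.87) and 17 at M2 (-0.07). None was called by edgeR or by DESeq2 at any of the 3 stages (background 0, 0.42 and 0%), and 8, 0 and 1 had an unadjusted p under 0.05. The lowest at M1 were SOF1, with -3.31 ± 1.08 (adjusted p = 0.238), and ECM16, with -3.08 ± 1.19 (adjusted p = 0.363).

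Alleles of the members in the hybrid were not called at later stages either. At M1, M1M2 and M2 edgeR called 0 of 34 (background 0.868, 0.834 and 1.53%), 6, 1 and 6 had an unadjusted p under 0.05, and DESeq2 called 5, 1 and 4 beside 6.66, 3.22 and 6.25% of all genes. The member medians were -0.78, 0.50 and 0.16. The lowest at M1 was RIO2, with -6.94 ± 1.91 (adjusted p = 0.0653), and the highest at M1M2 was RRP9, with 3.84 ± 1.28 (adjusted p = 0.218). At M1 47.3 to 48.9% of member counts went to the S. paradoxus allele, at M1M2 70.3, 56.3, 57.3 and 58.9%, and at M2 60.8, 56.3, 59.6 and 61%. All genes together had 50.6 to 52% in these 12 libraries. The member shares pool counts, so genes with many counts weigh most. CBF5 held 13.5% of member counts in M2 replicate 1, 85.8% of them S. paradoxus, and M2 replicate 3 had 297 member counts in all. Taken gene by gene, the allele difference was negative for 22, 12 and 16 of 34 members at M1, M1M2 and M2.

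2 of the 3 genes whose change differed between the parents had more S. paradoxus than S. cerevisiae reads in each hybrid M2 library. They were RRP12, whose change differed at M2, and HCA4, whose change differed at M1. IMP3, whose change was not called, also had more S. paradoxus reads in 4 of 4 hybrid M2 libraries. How many of all genes have more S. paradoxus reads in each hybrid M2 library was not counted. RRP12 had 62 S. cerevisiae and 339 S. paradoxus counts in replicate 1, 133 and 450 in replicate 2, 0 and 42 in replicate 3, and 6 and 85 in replicate 4. The RRP12 allele difference at M2 was 3.14 ± 0.963 (adjusted p = 0.0875), and at T0 it was -1.3 ± 0.869 (adjusted p = 0.997). HCA4 had 67 and 150, 42 and 271, 1 and 92, and 42 and 196 counts at M2, in the same order. Its allele difference at M2 was 2.63 ± 0.912 (adjusted p = 0.158). The S. paradoxus allele of HCA4 had more counts in 15 of 16 hybrid libraries, and in 3 of 4 at M1, the stage of its call. CBF5 had 123 and 745, 153 and 858, 29 and 1, and 124 and 127 at M2, with 0.59 ± 0.976 (adjusted p = 0.893).

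Other genes of ribosome production gave the following counts. Of 17 further small subunit and snoRNP factors, 6 fell in the hybrid at M1, 5 in S. cerevisiae and 1 in S. paradoxus, with medians of -2.15, -2.86 and -0.55. Of 33 large subunit assembly factors, 27, 25 and 3 fell, with medians of -4.25, -4.0 and -1.38. RNA polymerase I and its factors, 11 genes, had 5, 2 and 1 that fell, with medians of -2.80, -2.72 and -1.23. Of all genes tested, 9.41, 4.78 and 1.94% were called lower at M1 in the hybrid, S. cerevisiae and S. paradoxus. None of the 3 lists had a gene called higher at M1. At T0 their species differences had medians of -1.76, -2.28 and -1.86. There 0, 1 and 1 genes were called, all lower in S. paradoxus, beside 5.04% of all genes called in either direction.

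Of the 71 ribosomal protein genes in the tables, 55 fell in the hybrid at M1, 5 in S. cerevisiae and 2 in S. paradoxus (medians -3.15, -1.91 and -1.05), and at M2 62, 60 and 40 (medians -3.57, -3.81 and -2.96). Of all genes tested, 9.41, 4.78 and 1.94% were called lower at M1, and 14, 11.6 and 8.24% at M2. The species difference of these 71 genes at T0 had a median of -1.27 with 0 called (5.04% of all genes). Hybrid minus S. paradoxus at T0 had a median of -0.17 with 2 called (2.1% of all genes), where the 34 members had a median of 2.00.

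Of 5 regulators of ribosome genes, TOD6, which encodes a repressor that binds PAC, fell at M1 in S. cerevisiae with -6.92 ± 1.73 (adjusted p = 0.0063) and in the hybrid with -4.29 ± 1.21 (adjusted p = 0.0113), with -4.41 ± 1.41 (adjusted p = 0.0676) in S. paradoxus. SFP1, an activator of ribosome genes, fell in the hybrid at M1 with -3.04 ± 0.84 (adjusted p = 0.0097) and had -2.24 ± 0.941 (adjusted p = 0.127) in S. cerevisiae. SCH9, a nutrient-signalling kinase, fell in the hybrid at M1M2 with -2.37 ± 0.705 (adjusted p = 0.00952). RAP1 was not called at any stage in any genotype. The remaining regulator of the 5, and the other comparisons of TOD6, SFP1 and SCH9, are not described here.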

How the data were processed

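Poly-A RNA was sequenced in 40 libraries. Per the submitters' processing notes, Bowtie 0.12.7 and DESeq 1.8.3 were used; the counting tool and genome build are not given in the sources used here. The deposited values are raw counts per feature, and for the hybrid also per allele. Of 3463 features, 246 name no gene and hold 0.392 to 4.95% of a library's counts; they were left out of library sizes and tests. Depth was 23453 to 7732384 counts in genes, and shallow libraries give low genes little precision.

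The counts were fitted with edgeR 4.0.16 in R 4.3.3 (TMM scaling, filterByExpr, quasi-likelihood test, 3094 genes tested) as 12 groups in one model, with Benjamini-Hochberg adjustment within each comparison and a threshold of 0.05. Alleles were fitted with the library as a block (2997 genes), assuming that reads were given to alleles without bias. Scripts were tested on simulated data. Alternatives were RLE factors, DESeq2 1.42.0, no filter, a replicate block, a library size shared by both alleles, leaving out 4 libraries under 350000 counts, and leaving out each library. The labels do not say that libraries come from separate cultures, so p-values may measure technical spread only.

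Values in every library are given for NOP1, CBF5, RRP9, IMP4 and the member with the highest mean count in each role; in each comparison the 2 lowest and 2 highest members and those called, where at most 10, could be named. SOF1 and ROK1 levels, NHP2, IMP3, TOD6 and other genes outside this rule were chosen after their values were seen. Members and lists were chosen with earlier results of these data known. Gene names and promoter windows are from RefSeq R64, which matched all 34 members.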

Additional observations from a re-analysis of the deposited data

Results flagged for a closer look

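In 56 groups of 4 libraries, 8 had 1 library far from the other 3; chance alone gives about 1 in 20. The share of all counts given to S. paradoxus alleles was 65.5% in hybrid T0 replicate 1, and 50.6% in 1 hybrid M2 library, just below the others. UTP5 stood at 481 CPM in 1 hybrid M1 library and 179 in 1 hybrid M1M2 library. At M1 in the hybrid, IMP4 stood at 34.6 CPM and DIM1 at 144 in single libraries. DIP2 stood apart at 1.81 CPM in a hybrid M1M2 library and at 10.8 in a hybrid M2 library.

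For 3 genes the change from T0 differed between the parents by edgeR's quasi-likelihood test of the difference (Benjamini-Hochberg adjusted). S. paradoxus minus S. cerevisiae was 4.56 for HCA4 at M1 (adjusted p = 0.0265), 5.0 for CBF5 at M2 (adjusted p = 0.00983) and 5.15 for RRP12 at M2 (adjusted p = 0.0279), on the log2 scale.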

How the results depend on the processing

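Among the genes that could be named in each comparison, none changed the sign of a called value under any alternative. Other members were not checked for this. Shares of all genes in this section count calls in either direction. The backgrounds given above for comparisons with T0 count only genes called lower. DESeq2 moved the number of members called to 27 in S. cerevisiae at M1, and in S. paradoxus to 5 at M1 and 8 at M1M2, all against T0. Between stages it called 1 and 1 in the S. cerevisiae steps, beside 6.18 and 13.2% of all genes. In the hybrid steps it called 2 and 2, beside 10.2 and 8.57%. Between species it called 11, 2, 1 and 5 at T0, M1, M1M2 and M2, beside 11.6, 7.34, 6.12 and 6.09%. For the difference of changes it called 3, 1 and 5. For hybrid minus S. cerevisiae it called 1 and 6 at M1M2 and M2, beside 11 and 5.4%. Hybrid minus S. paradoxus gave 2, 1 and 1 at T0, M1 and M2, beside 4.83, 2.48 and 7%. Alleles gave 5, 1 and 4 at M1, M1M2 and M2, beside 6.66, 3.22 and 6.25%. RLE factors gave 1 in S. paradoxus at M1 (2.88% of all genes) and 0 in the hybrid step to M1M2 (6.98%). They gave 2 for hybrid minus S. cerevisiae at M2 (1.78%) and 1 for hybrid minus S. paradoxus at M2 (1.91%). With no filter the counts were 0 in the hybrid step to M1M2 (7.01%), 2 between species at M2 (2.32%) and 1 for alleles at M1 (1.42%). Without the shallow libraries they were 5 in S. paradoxus at M2, 4 in the hybrid step to M1M2 (10.7%) and 10 between species at T0. They were 3 and 2 for the difference of changes at M1 and M1M2 (3.44 and 4.15%). For hybrid minus S. paradoxus at M1 the count was 1 (2.12%). Shares over all genes moved too: in S. cerevisiae at M1 and S. paradoxus at M1 and M1M2, DESeq2 called 16.5, 6.43 and 13.2% of the genes it fitted. These are 526, 205 and 422 of 3186 genes, against 274, 104 and 289 of 3094 with edgeR. DESeq2 called 11.6% between species at T0. For hybrid minus S. cerevisiae at M2 it called 5.4%, and for the difference of changes 6.06, 4.87 and 4.46%. Without the shallow libraries 10% were called between species at T0. In S. paradoxus at M2 the share hardly moved, with 477 of 3108 genes (15.3%) against 468 of 3094 with all libraries. The cause of these moves was not tested.

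Leaving out 1 library gave 6 to 15, 6 to 16 and 15 to 21 members called in S. cerevisiae at M1, M1M2 and M2 against T0. In S. paradoxus it gave 0 to 4, 2 to 5 and 4 to 8, and in the hybrid 19 to 25, 17 to 21 and 15 to 19. It gave 0 to 1 for the S. cerevisiae step to M2, the hybrid step to M1M2, species at M1, the difference of changes at M1, hybrid minus S. paradoxus at M1 and alleles at M1. It gave 0 to 2 for species at M2 and for hybrid minus S. cerevisiae at M1 and M2, and 1 to 2 for the difference of changes at M2. Shares over all genes are not given for these refits.

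Replicate numbers did not pair the libraries: deviations of same-numbered libraries had a median correlation of 0.0075 over 204 pairs. With the replicate number as a block, 13, 14 and 24 members were called in S. cerevisiae against T0, beside 8.14, 11.6 and 22.5% of all genes. In either direction that is 252, 359 and 695 of 3094 genes, against 274, 384 and 704 without the block. In S. paradoxus 3, 5 and 8 were called, beside 3.2, 8.73 and 14.9%. In the hybrid 28, 25 and 21 were called, beside 11.8, 21.7 and 24.1%. The hybrid step from M1 to M1M2 had 0 (7.08%). RLE factors moved the median of all genes by over 0.1 in several comparisons, in the hybrid at M2 from -0.22 to 0.00.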
